A study of Mus musculus with 4 samples.

Results

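The genes described here were the metallothionein genes Mt1 and Mt2, the zinc-sensing transcription factor gene Mtf1, and the metal transporter genes Slc30a1, Slc30a10, Slc39a4 and Slc39a14, measured by RNA sequencing of mouse liver. They were taken by symbol from the deposited table, which held all 7 among its 56748 genes. The tissue came from NSG mice, an immunodeficient strain that lacks mature lymphocytes, with a genotype given as WT. The untreated group was 2 libraries from mice left untreated, with no vehicle mentioned, and the JIB-04 group was 2 libraries from mice dosed orally with JIB-04 at 55 mg/kg, 5 times at 2 doses per week. JIB-04 is a small-molecule inhibitor of the Jumonji histone demethylases. No age is stated in the labels. The labels do not tie each library to its own animal, so p-values measure only the spread between these libraries, which may be technical.

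Metallothioneins are small, cysteine-rich proteins that bind zinc, copper and cadmium and buffer their free concentration in the cell. Zinc activates the transcription factor MTF1, which binds metal response elements in front of metallothionein genes and of Slc30a1. Proteins of the SLC30 family carry zinc out of the cytosol and those of the SLC39 family carry it in, although SLC30A10 chiefly exports manganese. In liver, metallothionein genes are also known to answer glucocorticoids and the cytokines of the acute phase.

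The stretches of 250 bases before the start site are shown for Mt1 and Mt2, whose levels were highest and lowest in the same libraries, and for Slc30a10, which had the largest difference between groups. RefSeq promoters (GRCm38.p6) matched 5 of the 7 genes, and those of Slc39a4 and Slc39a14 did not match. Capitals mark the core of the metal response element, searched as TGCACNC and TGCGCNC on both strands. The windows are chr8:94178839-94179088 for Mt1, chr8:94172368-94172617 for Mt2 and chr1:185454598-185454847 for Slc30a10, all on the plus strand.
Mt1: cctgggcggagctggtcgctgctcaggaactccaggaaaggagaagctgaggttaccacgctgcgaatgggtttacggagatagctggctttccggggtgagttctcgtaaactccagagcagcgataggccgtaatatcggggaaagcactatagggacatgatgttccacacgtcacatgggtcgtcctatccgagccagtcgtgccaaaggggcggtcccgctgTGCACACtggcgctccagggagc
Mt2: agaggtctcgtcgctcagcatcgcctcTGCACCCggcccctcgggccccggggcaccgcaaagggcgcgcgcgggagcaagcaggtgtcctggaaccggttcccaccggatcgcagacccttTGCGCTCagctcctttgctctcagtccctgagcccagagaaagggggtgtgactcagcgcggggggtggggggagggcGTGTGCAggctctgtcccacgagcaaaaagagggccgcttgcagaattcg
Slc30a10: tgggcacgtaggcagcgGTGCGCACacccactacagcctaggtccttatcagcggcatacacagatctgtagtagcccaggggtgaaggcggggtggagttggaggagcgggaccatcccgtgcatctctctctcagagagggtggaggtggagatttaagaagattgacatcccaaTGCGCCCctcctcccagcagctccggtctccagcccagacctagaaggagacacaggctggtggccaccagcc

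The core was matched once in the Mt1 window, at 23 to 17 bases before the start. The Mt2 window held 3 matches, 2 of them on the gene's strand. The Slc30a10 window also held 3, of which a pair overlapped on opposite strands in a palindrome. The Slc30a1 window held 1 match, 43 to 37 bases before the start on the opposite strand, and that of Mtf1 held 0. Of 32851 promoters of this length, 21.4% held at least 1 match and 1.26% at least 3. In the 50 bases after the start, Mt1 had 2 further matches, and Mt2 and Slc30a1 had 1 each. Over the whole 300 bases the matches thus numbered 3 for Mt1, 4 for Mt2, 3 for Slc30a10 and 2 for Slc30a1. At that length 1.97% of promoters held at least 3 and 0.517% at least 4, so the Mt1 count depends on where the window ends. Bases outside these 300 were not searched. A match describes letters only, and binding was not measured.

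Levels are in FPKM, the fragments or reads per gene length and a scale close to library size. Changes in log2 are on the log2(FPKM + 1) scale, JIB-04 minus untreated. Genes with a mean of at least 1 FPKM over the 4 libraries were tested with limma, and a gene was called at a Benjamini-Hochberg adjusted p under 0.05. The libraries held 36469514 to 43283827 recovered reads. Hepatocyte genes were abundant in all of them. Albumin (Alb) was at 46658 and 46858 FPKM in the untreated libraries and 31689 and 22910 under JIB-04 (unadjusted p = 0.00924, limma adjusted p = 0.144). Of 8 listed hepatocyte markers 7 were found by symbol. These 7 all had a negative log2 change, as did 5260 of all 10819 tested genes. Limma called 0 of the 7, against 2.14% of all tested genes. Among markers of B, T and natural killer cells, Cd3e, Cd3g, Ms4a1 and Ncr1 had no read, while Cd79a had 8, 6, 2 and 0 reads and Klrb1c 2, 0, 0 and 4.

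None of the 7 genes was called between JIB-04 and untreated liver. Mt1 differed more between the untreated libraries than between the groups. Slc30a10 was lower in both JIB-04 libraries (mean 1.96 against 5.12 FPKM) and Slc39a4 was higher in both (21.7 against 14.98), but neither difference passed the adjusted threshold. Slc39a14, Slc30a1 and Mtf1 had small differences, and Mt2 lay below the level needed for testing. Limma thus called 0 of the 6 tested genes higher and 0 lower, against 2.14% of all 10819 tested genes in either direction. At an unadjusted p under 0.05 there were 2 of 6, Slc30a10 and Slc39a4, against 15.5% of all tested genes. Voom on recovered reads called 0, against 4.76% of all tested genes. Groups did not overlap for 3 of the 6, Slc30a10, Slc39a4 and Slc39a14, against 46.4% of all tested genes. The median log2 change was -0.12 over the 6 and 0.01 over all tested genes. In whole liver, fewer cells of a type and less RNA per cell cannot be told apart.

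**Figure D1:**
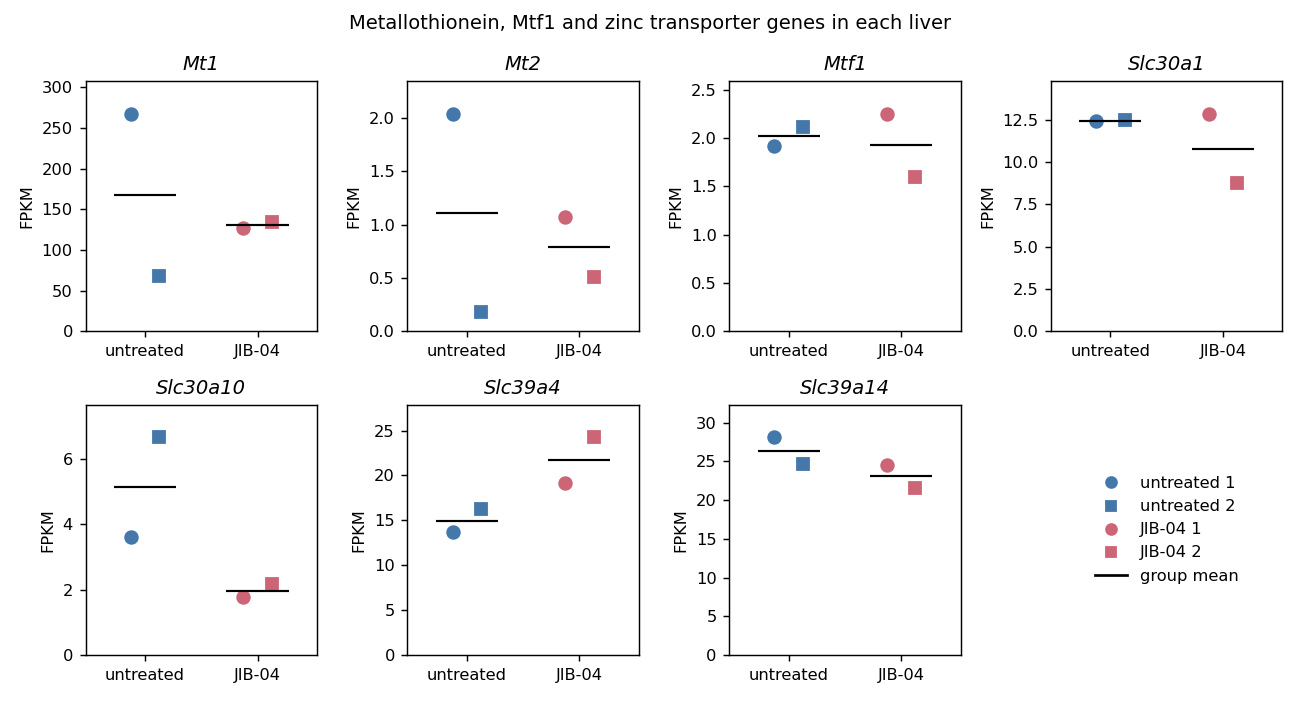
FPKM of each of the 7 genes in each library (points; circles are replicate 1, squares replicate 2) with the group mean (line, n = 2), each panel on its own linear axis from 0. The untreated libraries lie far apart for Mt1 (268 and 68.2) with both JIB-04 libraries between them, and the groups do not overlap for Slc30a10, Slc39a4 and Slc39a14.

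Mt1 (ENSMUSG00000031765) lies on chromosome 8 from 94905710 to 94906955 in GRCm39, the build of the deposited coordinates. Untreated 1 had 268 FPKM and untreated 2 had 68.2, while JIB-04 1 had 127 and JIB-04 2 had 134. Both JIB-04 libraries thus fell between the untreated ones, which differed 3.93-fold, while the JIB-04 libraries differed 1.06-fold. The reads behind these values numbered 12236 and 3210 in the untreated libraries and 6769 and 6127 under JIB-04, so counting error was small beside the gap. Group means were 168 ± 141 and 130 ± 5.09 FPKM (SD, n = 2). The log2 change was -0.06 (SE 0.797, 95% interval -2.57 to 2.46, limma adjusted p = 0.987), so the interval holds both a large fall and a large rise. The outcome turned on which untreated library was kept. Without untreated 1 the log2 change was 0.92 (limma adjusted p = 0.0574), and without untreated 2 it was -1.03 (0.0398), within a range of 0.0398 to 0.995 over all alternatives.

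The gap between the untreated libraries put Mt1 among the most variable genes of that group. Of the 10819 tested genes, 26 (0.240%) had a larger absolute difference of log2(FPKM + 1) between untreated 1 and 2. Between the JIB-04 libraries 74.1% of tested genes had a larger difference than Mt1. Slc30a1 was at the other end, with a larger untreated gap in 97.7% of tested genes. These shares describe a single pair of libraries per group.

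**Figure D2:**
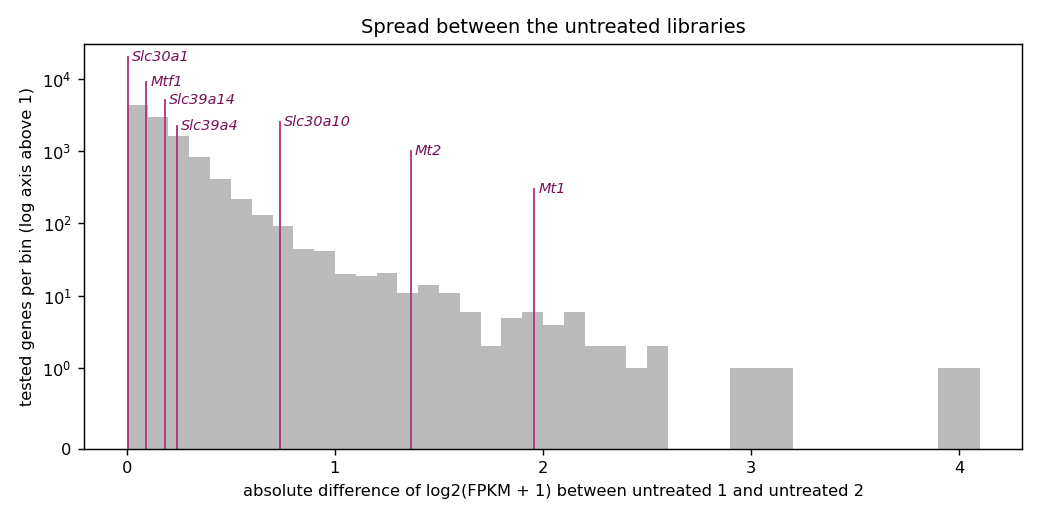
Histogram of the absolute difference of log2(FPKM + 1) between untreated 1 and untreated 2 over the tested genes (bins of 0.1, vertical axis logarithmic above 1), with the 7 genes marked by vertical lines of arbitrary height. Mt1 (1.96) and Mt2 (1.37, itself below the level needed for testing) lie in the sparse right tail, Slc30a10 (0.736) between, and the other 4 at 0.242 or less.

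Mt2 (ENSMUSG00000031762, chromosome 8, 94899292 to 94900196), the other metallothionein gene active in liver, is a neighbour of Mt1 on the same strand. It was counted at 2.04 FPKM in untreated 1 and 0.180 in untreated 2, and at 1.07 and 0.509 under JIB-04. Untreated 1 was again the highest library and untreated 2 the lowest, with both JIB-04 libraries between. These values rest on 44, 4, 27 and 11 reads, in the same order. The mean over the libraries was under 1 FPKM, so Mt2 was not tested. Its log2 change of -0.10 has no p, and was -0.78 without untreated 2 and 0.58 without untreated 1.

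The Mt2 level is uncertain because the gene shares sequence positions with an antisense gene. Gm45774, a long noncoding RNA gene on the opposite strand, runs from 94897376 to 94900040 and covers 749 of the 905 bases that Mt2 spans. In GENCODE M21 (GRCm38) its exons cover 432 of the 588 exon bases of Mt2 (73.5%) and leave 156. Gm45774 itself had 2 and 4 reads in untreated 1 and 2, and none under JIB-04. Without strand information, reads from the shared positions of such a pair cannot be told apart. No source used here gives the strand setting or the handling of shared positions. Mt1 shares no exon base with another gene in that annotation. The Mt1 to Mt2 ratio of FPKM, 131 and 379 in the untreated libraries and 118 and 263 under JIB-04, therefore carries the same doubt. It overlapped between groups (exact two-sided permutation p = 0.667, where 2 against 2 cannot give less than 0.33).

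Summed, Mt1 and Mt2 came to 270 and 68.4 FPKM in the untreated libraries and 128 and 134 under JIB-04 (exact two-sided permutation p = 1). As counted, nearly all of this was Mt1, a share that carries the same doubt about the Mt2 level. Mt3 and Mt4, the brain and squamous epithelium members of the family, had no read in any library, which allows up to 0.0767 FPKM for Mt3 and 0.206 for Mt4 at 3 reads, for counting error only.

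The genes nearest to Mt1 in profile were S100a9, Orm2 and Serpina7. Likeness was the root mean square difference of log2(FPKM + 1), each gene centred on its own mean over the 4 libraries, which gave 0.0533, 0.221 and 0.321. With 4 points, set mainly by 1 high and 1 low library, this describes the libraries and gives no p. S100a9, a calcium-binding protein gene of neutrophils, was at 18.7 and 4.01 FPKM in the untreated libraries and 7.51 and 8.45 under JIB-04. S100a8, also listed as a neutrophil marker, did not share this profile, at 6.68 and 2.40, and 36.3 and 63.0. The markers Ly6g, Mpo, Elane and Camp were at most 0.511 FPKM in every library. Orm2, an acute phase plasma protein gene, was at 133 and 42.1, and 63.1 and 53.6. Serpina7, which encodes the thyroxine carrier of plasma, was at 40.6 and 13.2, and 16.5 and 13.9. For each of the 3 nearest genes, picked for likeness over these same libraries, untreated 1 was highest and untreated 2 lowest, as for Mt1. The nearest to Mt2 were Orm2 (0.179), H2-T22 (0.189), a histocompatibility gene, and Plekho1 (0.230).

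Acute phase genes, which the liver switches on in inflammation, were higher in untreated 1 than in untreated 2 for 20 of the 20 tested, against 50.1% of all tested genes, a count made after the values were seen. The list summed to 19071 and 12839 FPKM in those libraries, and to 20153 and 17972 under JIB-04. Saa1 and Saa2, the serum amyloid A genes, were chosen after their values were seen. Saa1 was at 363 and 20.6 FPKM in the untreated libraries and 135 and 41.7 under JIB-04, and Saa2 at 135 and 8.09, and 61.9 and 15.1. Their untreated libraries differed 17.6-fold and 16.7-fold, again with untreated 1 highest and untreated 2 lowest. Of 20 tested acute phase genes Orm3 rose, from 31.8 ± 5.21 to 75.3 ± 10.9 FPKM (SD, n = 2, limma adjusted p = 0.0199), and 0 fell, with a median log2 change of 0.21. Limma called 2.14% of all tested genes. At an unadjusted p under 0.05 there were 5 of the 20, against 15.5% of all tested genes. The Orm3 call ended without untreated 2 (limma adjusted p = 0.0539), JIB-04 1 (0.118) and JIB-04 2 (0.177), and its adjusted p ran from 0.000653 to 0.211 over alternatives. Apcs averaged 1042 and 1525 FPKM (0.146), Socs3, the feedback inhibitor of cytokine signalling, 9.73 and 4.40 (0.173), and the interleukin receptor gene Il1r1 8.78 and 5.26 (0.174). Without untreated 1 the list had 2 genes called higher, and without untreated 2 it had 2 called lower.

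Glucocorticoid targets were set beside the metallothioneins because glucocorticoids, too, are known to raise Mt1. Of 11 tested, Zbtb16 fell, from 2.17 ± 0.357 to 0.575 ± 0.193 FPKM (SD, n = 2; limma adjusted p = 0.0351), and 0 rose, with a median log2 change of -0.26. Of the 11, 5 (45.5%) were higher in untreated 1 than in untreated 2. A negative log2 change was found for 10 of the 11, and for 5260 of all 10819 tested genes. At an unadjusted p under 0.05 there were 4, against 15.5% of all tested genes. Voom called 3 lower. Of all tested genes, limma called 2.14% and voom 4.76%. The Zbtb16 call ended without each of the 4 libraries in turn (limma adjusted p between 0.0604 and 0.200), within 0.00206 to 0.241 over alternatives. The clock gene Per1 averaged 10.04 and 6.68 FPKM (0.0910), the transcription factor gene Klf9 17.2 and 10.7 (0.0939) and the growth inhibitor gene Ddit4 2.34 and 4.28 (0.311). Whether glucocorticoid or acute phase activity had a part in the Mt1 values was not tested.

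**Figure D3:**
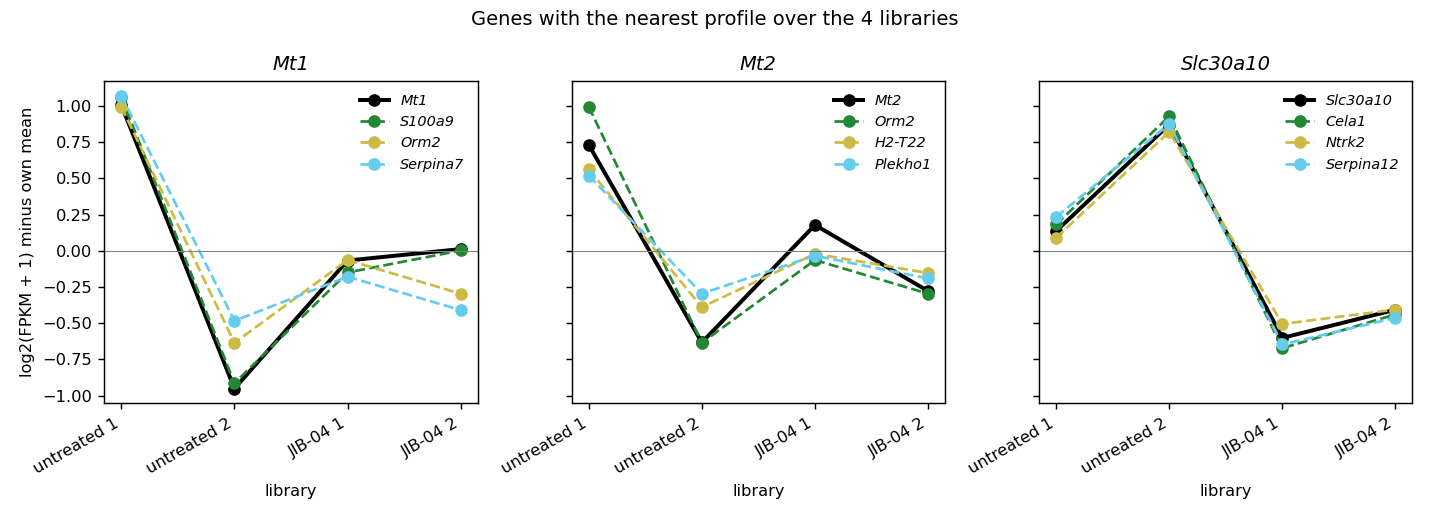
log2(FPKM + 1) minus the gene's own mean over the 4 libraries, for Mt1, Mt2 and Slc30a10 (black) and the 3 tested protein-coding genes nearest to each (colours; lines only join the points of a gene). The Mt1 and Mt2 panels are highest in untreated 1 and lowest in untreated 2, whereas Slc30a10 and its neighbours are highest in untreated 2 and below their mean in both JIB-04 libraries.

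Mtf1 (ENSMUSG00000028890, chromosome 4, 124695897 to 124743593) encodes the transcription factor that senses zinc. It was at 1.92 and 2.12 FPKM in the untreated libraries and 2.25 and 1.60 under JIB-04. The JIB-04 libraries were the highest and the lowest of the 4, so the groups overlapped. The log2 change was -0.05 (SE 0.155, 95% interval -0.42 to 0.32, limma adjusted p = 0.924), and without JIB-04 2 it was 0.11. Opposite-strand exons of 1110065P20Rik cover 8.09% of the exon bases of Mtf1. The reads of 1110065P20Rik were 215 and 283 in the untreated libraries and 377 and 208 under JIB-04. Those of Mtf1 were 628 and 712, and 861 and 523. Both genes had most reads in JIB-04 1 and fewest in JIB-04 2, and without strand information reads from shared positions cannot be told apart.

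Among 5 other tested genes reported to answer MTF1, 0 rose and 0 fell by limma (2.14% of all tested genes called) or by voom (4.76%). Of them 1 had an unadjusted p under 0.05 (15.5% of all), and the median log2 change was -0.15. Groups did not overlap for 5 of the 5, against 46.4% of all tested genes. The log2 change was negative for 4 and positive for 1. The iron exporter gene Slc40a1 averaged 39.3 ± 7.29 and 27.7 ± 2.96 FPKM (SD, n = 2; limma adjusted p = 0.219), and Ndrg1, a stress-responsive gene, 1.09 and 2.02 (0.338). Selenow, a selenoprotein gene, averaged 76.1 and 66.4 (0.541) and Csrp1 6.36 and 5.69 (0.663).

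Slc30a10 (ENSMUSG00000026614, chromosome 1, 185187045 to 185200959), the manganese exporter gene, was at 3.60 and 6.65 FPKM in the untreated libraries and 1.76 and 2.16 under JIB-04. Both untreated libraries were above both JIB-04 libraries, and the untreated mean (5.12 ± 2.16, SD, n = 2) was 2.62-fold the JIB-04 mean (1.96 ± 0.282). The reads were 858 and 1636 against 490 and 515. The log2 change was -1.01 (SE 0.257, 95% interval -1.65 to -0.37, unadjusted p = 0.00924, limma adjusted p = 0.144), ranked 692 of the 10819 tested genes by p. The untreated libraries differed 1.85-fold in FPKM between themselves. Their difference of log2(FPKM + 1), 0.736, was exceeded by 2.54% of tested genes. Without untreated 1 the log2 change was -1.38 and the gene was called (limma adjusted p = 0.0230), and without untreated 2 it was -0.64 (0.237), within 0.0230 to 0.418 over alternatives. It stayed negative in all 14 alternatives that gave a value.

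A long noncoding RNA gene on the opposite strand, Gm2061, shares 9.13% of the exon bases of Slc30a10 in GENCODE M21. The reads assigned to it were 14 and 47 in the untreated libraries and 1 and 5 under JIB-04, lowest and highest in the same libraries as for Slc30a10, and its level was too low for testing. Without strand information reads from the shared positions cannot be told apart, while most exon bases of Slc30a10 are not shared. The genes nearest to Slc30a10 in profile were Cela1 (0.0535), an elastase gene, Ntrk2 (0.0590), a neurotrophin receptor gene, and Serpina12 (0.0607), the gene of the adipokine vaspin. Cela1 was at 6.82 and 12.1 FPKM in the untreated libraries and 3.33 and 4.09 under JIB-04 (limma adjusted p = 0.137). Ntrk2 was at 1.35 and 2.90, and 0.554 and 0.665 (0.154), and Serpina12 at 1.49 and 2.89, and 0.354 and 0.539 (0.0738). All 3, picked for likeness over these same libraries, were highest in untreated 2 and lowest in JIB-04 1, as was Slc30a10. This shared order is therefore no separate finding. Cela1 is one of 7 genes listed as markers of pancreatic acinar cells. The other 6, among them Cpa1, Pnlip and Prss2, were each at most 0.399 FPKM in every library.

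Slc30a1 (ENSMUSG00000037434, chromosome 1, 191638879 to 191645359) encodes the zinc exporter of the plasma membrane and is a known MTF1 target. It was at 12.4 and 12.4 FPKM in the untreated libraries and 12.9 and 8.74 under JIB-04. Only JIB-04 2 stood below the others, and JIB-04 1 was the highest of the 4. The log2 change was -0.21 (SE 0.179, 95% interval -0.64 to 0.22, limma adjusted p = 0.664), and without JIB-04 2 it was 0.05. The antisense gene 1700034H15Rik covers 8.92% of the exon bases of Slc30a1. It had 5 and 7 reads in the untreated libraries and 26 and 24 under JIB-04, too low a level for testing. Slc30a1 did not follow Mt1: its untreated libraries differed 1.004-fold while those of Mt1 differed 3.93-fold.

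Slc39a4 (ENSMUSG00000063354, chromosome 15, 76496583 to 76501584) encodes a zinc importer best known for dietary zinc uptake in the intestine. It was at 13.6 and 16.3 FPKM in the untreated libraries and 19.2 and 24.2 under JIB-04, so both JIB-04 libraries were above both untreated ones. Means were 14.98 ± 1.89 and 21.7 ± 3.60 FPKM (SD, n = 2), a 1.45-fold difference. The log2 change was 0.50 (SE 0.157, 95% interval 0.13 to 0.88, unadjusted p = 0.0158, limma adjusted p = 0.186), positive in all 15 alternatives, with adjusted p between 0.101 and 0.579. Of 7 enterocyte markers Alpi, Cdh17 and Sis had no read in any library, Lct, Muc13 and Vil1 were at most 0.415 FPKM in each, and Fabp2 fell, from 80.3 ± 8.81 to 36.2 ± 5.26 (limma adjusted p = 0.0195). The Slc39a4 reads numbered 1554 to 2765.

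Slc39a14 (ENSMUSG00000022094, chromosome 14, 70540918 to 70588874) encodes an importer of zinc, manganese and iron into hepatocytes and is known to answer interleukin-6. It was at 28.1 and 24.7 FPKM in the untreated libraries and 24.6 and 21.6 under JIB-04. The groups just failed to overlap, with JIB-04 1 and untreated 2 almost equal. The log2 change was -0.18 (SE 0.133, 95% interval -0.50 to 0.13, limma adjusted p = 0.592), negative in all 15 alternatives.

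By FPKM, which is per length, the order of group means was the same in both groups, from Mt1 through Slc39a14, Slc39a4, Slc30a1, Slc30a10 and Mtf1 to Mt2. Neighbours in that order were not always apart. Slc39a14 (21.6 to 24.6) and Slc39a4 (19.2 to 24.2) overlapped in JIB-04 liver, as did Slc30a10 (1.76 to 2.16) and Mtf1 (1.60 to 2.25). Mtf1 (1.92 to 2.12) and Mt2 (0.180 to 2.04) overlapped in untreated liver. The last place of Mt2 carries the doubt about its count given above. No test was made between genes.

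The rest of the zinc transporter families gave no called gene. Of 8 other SLC30 genes 5 were tested, with a median log2 change of 0.23. Limma called 0 (2.14% of all tested genes), and 1 had an unadjusted p under 0.05 (15.5% of all). Voom called 1, against 4.76% of all tested genes. Slc30a9 was at 6.20 and 6.94 FPKM in the untreated libraries and 9.65 and 9.26 under JIB-04 (limma adjusted p = 0.122), and was the 1 gene of this list called by voom (adjusted p = 0.0494), within 0.0494 to 0.463 over alternatives. Slc30a5 and Slc30a6, which load zinc into the secretory pathway, averaged 4.63 and 5.70 FPKM (0.376) and 4.51 and 5.45 (0.430). Slc30a7 averaged 2.26 and 2.19 (0.953).

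Of 12 other SLC39 genes 7 were tested, with a median log2 change of -0.12. Limma and voom called 0 of them, against 2.14% and 4.76% of all tested genes. At an unadjusted p under 0.05 there were 2, against 15.5% of all tested genes. Slc39a11 was at 9.30 and 9.23 FPKM in the untreated libraries and 13.1 and 12.3 under JIB-04 (limma adjusted p = 0.139). Slc39a13 averaged 1.98 and 2.89 (0.210), Slc39a8, which also carries manganese, 4.40 and 3.73 (0.585), and Slc39a5 2.95 and 2.29 (0.708). Slc39a1 had the highest level of all 24 transporter genes in every library, at 35.3 to 44.0 FPKM. Summed over the 24, the level was 153 and 148 FPKM in the untreated libraries and 153 and 152 under JIB-04, so the 4 sums ran only from 148 to 153.

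**Figure D4:**
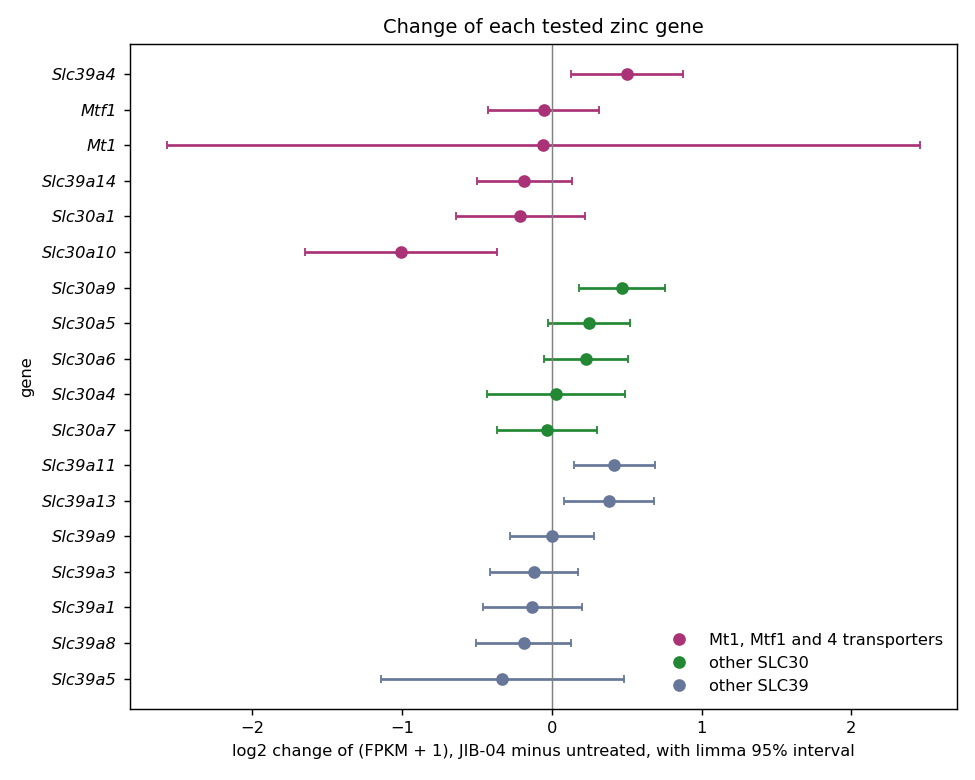
log2 change of (FPKM + 1), JIB-04 minus untreated, with the limma 95% interval (unadjusted for the number of genes), for the 6 tested genes of Mt1, Mtf1 and the 4 transporters and for the 12 other tested zinc transporter genes. The Mt1 interval is the widest, from -2.57 to 2.46, and the Slc30a10 point is the lowest.

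Among the 7 manganese and 11 copper genes tested, 1 was called, against 2.14% of all tested genes. The 7 manganese genes had a median log2 change of -0.05. Limma and voom called 0 of them, against 2.14% and 4.76% of all tested genes. At an unadjusted p under 0.05 there were 0 of them, against 15.5% of all. Besides Slc39a8 they included the Golgi manganese pump gene Atp2c1 (4.03 and 3.44 FPKM, limma adjusted p = 0.621), Arg1, the manganese-dependent arginase (556 and 514, 0.802), and Tmem165 (4.63 and 4.99, 0.840). Of 11 tested copper genes, with a median log2 change of -0.03, Steap3, a metalloreductase gene, fell, from 3.93 ± 0.342 to 1.53 ± 0.0215 FPKM (SD, n = 2; limma adjusted p = 0.0195), and 0 rose. The Steap3 call ended without each library in turn (limma adjusted p between 0.0539 and 0.143), within 0.000692 to 0.177 over alternatives. The plasma ferroxidase gene Cp averaged 174 and 236 (0.203), the copper importer gene Slc31a1 59.0 and 49.2 (0.423) and Commd1 1.54 and 1.22 (0.584).

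Antioxidant genes were included since metallothioneins also scavenge oxidants. Limma called 0 of 8 (2.14% of all tested genes), and 3 had an unadjusted p under 0.05 (15.5% of all). Voom called 2 (4.76% of all), and the median log2 change was 0.00. The 2 called by voom were Srxn1, which repairs peroxiredoxins (10.3 ± 0.733 and 16.3 ± 0.788 FPKM, SD, n = 2; limma adjusted p = 0.0589, 0.0193 by voom), and the glutathione reductase gene Gsr (14.5 ± 0.848 and 22.7 ± 1.55; 0.0605, 0.0162 by voom). Nqo1 averaged 5.66 and 9.19 (0.190) and Gclc, which makes the first step of glutathione synthesis and is a reported MTF1 target, 66.1 and 59.5 (0.669).

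Markers of other cells moved with some of these libraries. Of 6 red cell genes, 5 tested and 0 called, the sum was 2952 and 1845 FPKM in the untreated libraries and 655 and 1782 under JIB-04. The 6 neutrophil genes, 2 tested and 0 called, summed to 26.0 and 6.98, and 44.3 and 71.5, of which S100a8 made 6.68 and 2.40, and 36.3 and 63.0, while Ly6g, Mpo, Elane and Camp were at most 0.511 FPKM in every library. Kupffer cell and macrophage genes (8 of 8 negative, 0 called) summed to 322 and 274, and 245 and 300 FPKM. Of all 10819 tested genes, 5260 had a negative log2 change and limma called 2.14%. Endothelial genes summed to 81.8 and 63.1, and 65.2 and 68.7, and stellate cell genes to 89.5 and 68.7, and 67.4 and 67.3. The neutrophil, red cell, macrophage, endothelial, stellate and acute phase sums were higher in untreated 1 than in untreated 2, as were Mt1 and Mt2. So were the hepatocyte (68589 and 67356), cholangiocyte (40.5 and 34.7) and enterocyte (87.0 and 74.4) sums, whereas the pancreatic acinar sum was lower (7.32 and 12.7). Their part in the Mt1 and Mt2 values was not tested.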

How the data were processed

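The 4 liver RNA samples were prepared with Trizol and sequenced by a company, per the labels' protocols. The authors deposited FPKM values for each gene and library, with gene lengths and coordinates. Coordinates are in GRCm39, per the submitters' processing notes. For aligner, counter, annotation release and strand option, nothing was given in the sources used here.

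Read numbers were recovered from the product of FPKM and gene length, which came out whole for 100% of values (tolerance 0.01). Depth was 36793474 reads for untreated 1, 36878654 for untreated 2, 43283827 for JIB-04 1 and 36469514 for JIB-04 2. A read in 1 kb stood for 0.027268, 0.026471, 0.023327 and 0.027233 FPKM, in the same order. These values do not exactly follow the recovered depths, and how the deposited scale was set is not given in the sources used here. Genes averaging at least 1 FPKM were tested on log2(FPKM + 1) with limma 3.58.1 in R 4.3.3 (trend and robust moderation, two-sided, Benjamini-Hochberg over all tested genes), checked on simulated data. Between the groups 165 genes rose and 67 fell (71.1% higher). The share higher was 59.8% after a TPM scaling that left out mitochondrial genes and the top 50, and 60.0% with voom. Named are all 7 genes, up to 4 genes of lowest p in each other list, and the 3 tested protein-coding genes of nearest profile for Mt1, Mt2 and any of the 7 with an SD of log2(FPKM + 1) of at least 0.5. The genes and lists were chosen with earlier results of these data known. Intervals are 95% limma intervals. Alternatives were other pseudocounts, filters, scalings and moderation, voom, the replicate number as a block, and leaving out each library.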

Additional observations from a re-analysis of the deposited data

How the results depend on the processing

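The replicate numbers of the titles were not shown to pair libraries: the deviations of replicate 1 from 2 in the groups correlated at -0.0492 across 10819 tested genes. With the replicate block 357 genes were called instead of 232, and of the 7 genes 1 was (Slc30a10, limma adjusted p = 0.0248). Over all genes 20 were called with no filter on low values and 515 with voom, and 23 to 156 when a library was left out (30 without JIB-04 1, 23 without JIB-04 2). A library left out leaves a lone one, assumed to vary like the other group. Of the 7 genes 0 to 1 were called without a library, Mt1 when untreated 2 was out and Slc30a10 when untreated 1 was.

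In the other lists, voom called 1 SLC30 gene, 3 glucocorticoid targets, 2 acute phase genes and 2 antioxidant genes. No filter gave 0 calls in the copper, glucocorticoid and acute phase lists. A mean of at least 5 FPKM gave 0 copper and 0 glucocorticoid calls, since it removed the called gene of each, and 2 antioxidant calls. Leaving out a library gave 0 copper, 0 glucocorticoid and 0 to 2 acute phase calls.

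When a library was left out, log2 changes crossed 0 as follows. Without untreated 2 and without untreated 1, respectively, they were -1.03 and 0.92 for Mt1, -0.78 and 0.58 for Mt2, -1.14 and 0.84 for S100a9, -1.18 and 0.46 for Orm2, -1.37 and 0.19 for Serpina7, -0.65 and 0.30 for H2-T22, and -0.63 and 0.18 for Plekho1. Arg1 gave -0.22 with untreated 1 out and 0.0076 with untreated 2 out. With JIB-04 1 and then JIB-04 2 out, they were -0.22 and 0.11 for Mtf1, -0.46 and 0.045 for Slc30a1, -0.15 and 0.087 for Slc30a7, 0.12 and -0.78 for Slc39a5, and 0.21 and -0.041 for Tmem165. The JIB-04 to untreated ratio of the Mt1 and Mt2 sum was 0.775, and 0.486 to 1.92 when a library was left out (1.92 without untreated 1). That of the Mt1 to Mt2 ratio was 0.747, and 0.464 to 1.45 (1.45 when untreated 2 and 1.03 when JIB-04 1 was out). The cause was not tested. Mt2 was also positive when JIB-04 2 was left out (0.13), with a pseudocount of 0.1 (0.13) and with voom (0.22). Mt2, Mtf1 and Slc30a10 had no value at a mean of at least 5 FPKM. Mt2 rested on 4 to 44 reads.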
